A study of Mus musculus with 9 samples.

Results

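The hyaluronan matrix genes followed here were Tnfaip6, Ptx3, the synthase genes Has1, Has2 and Has3, the hyaluronidase genes Hyal1 and Hyal2, Cd44 and Vcan. They were found by the gene symbols of the array's annotation. Of the 9 genes listed, 8 had at least 1 probe set of their own, out of 18193 genes measured in all, and these 8 genes held 20 probe sets. Tnfaip6 was selected because it was among the larger decreases with the full-length receptor in earlier results of these arrays, so its values are a description and are not tested. The other 7 measured genes were tested over all 18193 genes, though the list itself was chosen with earlier results of these data known.

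Total RNA came from NIH-CAR cells at passage 12, a clone of the NIH-3T3 mouse fibroblast line that carries CARΔ1, a form of the receptor through which adenoviral vectors enter. All cells received an adenovirus for 2 h. In the empty-vector group (AdEmpty) the virus carried no insert and the vehicle DMSO was added afterwards. In the full-length group it encoded HA-tagged PPARg2 (HA-PPARg2), the adipocyte isoform of the nuclear receptor, and in the A/B-deleted group it encoded HA-PPARgCDE, which lacks the amino-terminal A/B domain. Both receptor groups were given 1 µM rosiglitazone, a PPARg agonist, so receptor and agonist changed together and cannot be told apart. Each group had 3 arrays, numbered 1 to 3, from separate experiments on this 1 clone.

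Hyaluronan is a long, unsulfated sugar chain that synthases in the plasma membrane extrude directly into the space around the cell. The product of Tnfaip6 transfers protein heavy chains onto hyaluronan, pentraxin 3 (Ptx3) links those heavy chains together, and versican (Vcan) binds the chain by its globular head, while CD44 holds it at the cell surface. Hyaluronidases cut it. Fibroblasts make much of this matrix, and it is best known from wound repair, inflamed tissue and the cumulus around the oocyte.

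Promoter sequences were at hand from RefSeq (GRCm38.p6) for 7 of the 9 genes, all but Has2 and Has3. The bases just upstream of the annotated start are shown for Tnfaip6, at chr2:52037863-52038112, and Ptx3, at chr3:66219637-66219886, both on the plus strand, since these 2 genes shared the ordering of the groups described further on. Capitals mark matches on either strand to AP-1 (TGANTCA), the CCAAT box (CCAAT), C/EBP (TTNCNNAA), the TATA box (TATAAA) and NF-kB.
Tnfaip6: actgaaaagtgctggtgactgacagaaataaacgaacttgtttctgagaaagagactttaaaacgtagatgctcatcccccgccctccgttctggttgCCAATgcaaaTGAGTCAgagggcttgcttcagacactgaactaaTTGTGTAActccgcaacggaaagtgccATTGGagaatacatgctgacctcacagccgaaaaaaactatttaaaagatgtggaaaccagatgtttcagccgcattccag
Ptx3: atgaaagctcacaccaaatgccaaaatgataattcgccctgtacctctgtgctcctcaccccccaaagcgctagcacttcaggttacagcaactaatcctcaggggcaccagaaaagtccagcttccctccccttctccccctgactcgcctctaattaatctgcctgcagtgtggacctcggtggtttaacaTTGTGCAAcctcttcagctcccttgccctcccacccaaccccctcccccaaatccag

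In Tnfaip6 the AP-1 match TGAGTCA began at position -142 from the start, beside CCAAT boxes at -152 and -81 and a C/EBP match at -108. Ptx3 had a C/EBP match at -57 and overlapping NF-kB matches at -1 and 1, which run past the stretch shown. Over all 32851 RefSeq promoters of this length (250 bases before to 50 after the start), 7.81% held the AP-1 motif, 37.4% a CCAAT box, 40.7% the C/EBP motif, 13.6% the TATA box and 8.46% the NF-kB motif. The C/EBP and CCAAT matches are therefore common ones. A direct repeat of AGGTCA spaced by 1 base, the element bound by PPARg with RXR, was found in 0.04% of all promoters and in none of those of the 7 matrix genes, while its single hexamer AGGTCA, found in 16.3%, occurred in Tnfaip6 (-65) and Has1 (-113). A match is only a stretch of letters. A missing match says only that these letters are not in this window.

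The cells carried the transcripts of fibroblasts: the mean levels of 11 of 12 fibroblast markers lay above the highest array median. So did 4 of 8 epithelial, 3 of 6 skeletal muscle, 3 of 7 adipocyte, 1 of 9 leukocyte and 0 of 7 endothelial markers. Besides Tnfaip6, 10686 of all 18193 genes had a mean level of at least 7, which is above that median (6.90). Lying above it is thus not particular to fibroblast markers. Fabp4, 1 of the adipocyte markers, lay above it only through the receptor groups, with a mean of 5.82 with the empty vector. Pparg, counted with the transgene, rose by 4.20 (full-length) and 4.28 (A/B-deleted) on the log2 scale (SE 0.41, limma adjusted p = 0.00191 and 0.00228). Of 7 adipocyte markers, 3 (Fabp4, Lpl and Cidec) were called higher with the full-length and 2 (Fabp4 and Lpl) with the A/B-deleted receptor, while Adipoq, Lep, Cd36 and Retn were called in neither. The median difference of the 7 was 0.22 and 0.04. The log2 of the mean antilog of all 7, which Fabp4 and Lpl dominate in the receptor groups, was 6.05 to 6.46 with the empty vector, 10.68 to 11.14 for the full-length group and 8.80 to 10.56 for the A/B-deleted group. The part of these changes in the values of the matrix genes was not tested. The arrays numbered 3 stood apart from the others. The control probe sets for 18S RNA averaged 7.59 to 8.67 on them and 10.51 to 12.44 on the other 6. Correlations between arrays were 0.957 to 0.991. All levels here are log2 values as deposited, a difference of 1 is a doubling, and bulk RNA cannot tell fewer expressing cells from less RNA per cell.

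**Figure D1:**
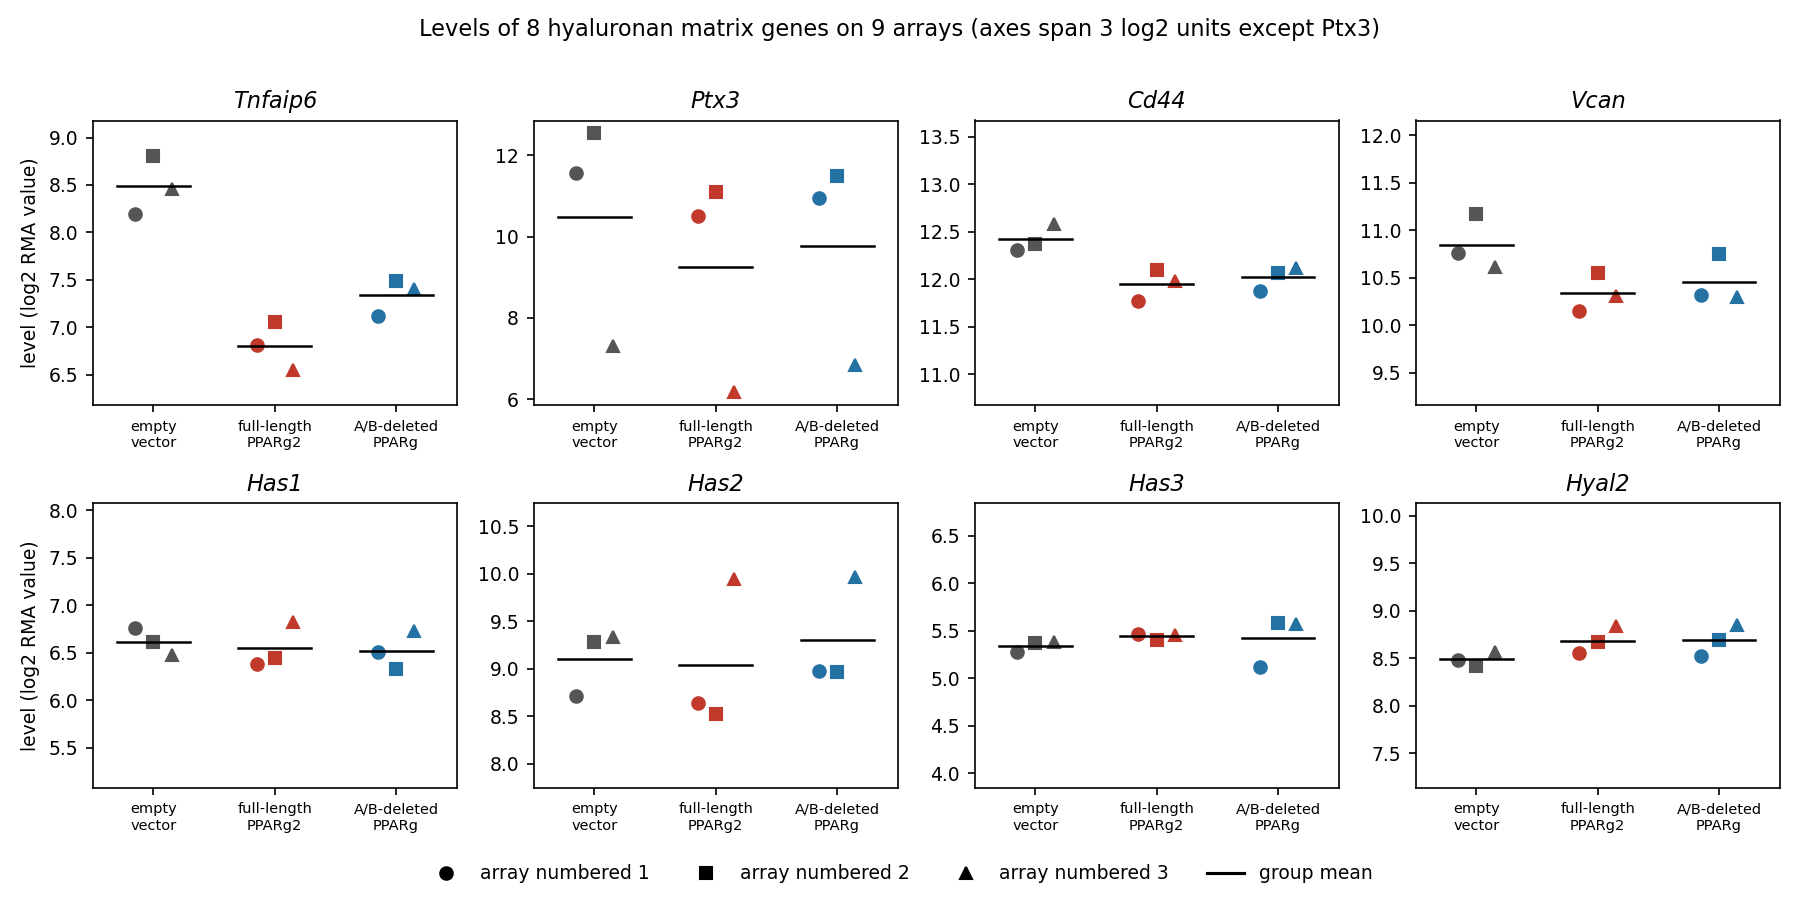
Level (log2 RMA value, vertical axis) of 8 hyaluronan matrix genes in the 3 groups (horizontal axis), with 1 point per array, the shape giving the array's number, and a line at the group mean; every axis spans 3 log2 units except that of Ptx3. Tnfaip6 shows 3 separate groups (8.20 to 8.81, 6.55 to 7.06 and 7.12 to 7.49), and in Ptx3 the arrays numbered 3 lie between 6.17 and 7.31 and all others above 10.

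Tnfaip6, which encodes the heavy-chain transferase, stood highest with the empty vector and lowest with the full-length receptor. Its level was 8.20, 8.81 and 8.46 on the empty-vector arrays 1 to 3, 6.81, 7.06 and 6.55 on the full-length arrays, and 7.12, 7.49 and 7.41 on the A/B-deleted arrays. No array of any group overlapped with another group, and the A/B-deleted arrays lay between the others. The group means were 8.49 ± 0.31, 6.81 ± 0.25 and 7.34 ± 0.19 (SD, n = 3 each). Full-length arrays were thus 1.68 below the empty vector (SE 0.19), 3.20-fold, and A/B-deleted arrays 1.15 below it, 2.22-fold. The A/B-deleted mean was 0.53 above the full-length mean, 1.44-fold.

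Within each array number the same order held for Tnfaip6. Full-length minus empty vector was -1.38, -1.75 and -1.91 for numbers 1 to 3. A/B-deleted minus empty vector was -1.08, -1.32 and -1.06, and A/B-deleted minus full-length was 0.30, 0.43 and 0.85. The difference between the receptors was therefore positive at every number, and its size ranged widely. The comparisons with the empty vector share the same 3 empty-vector arrays. Only 1 probe set reported Tnfaip6.

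Over the 7 genes not selected on their values, limma called 0 higher and 0 lower at a Benjamini-Hochberg adjusted p under 0.05 in any of the 3 comparisons. For full-length receptor against empty vector the background was 0.5% of all genes called higher and 0.154% called lower. It was 0.159% and 0.011% for A/B-deleted against empty vector, and 0% and 0% between the receptors. At an unadjusted p under 0.05 the 7 genes gave 2, 1 and 0, beside 1127, 689 and 277 of all genes, in the same order of comparisons. The median difference of the 7 was -0.07, -0.10 and 0.08, beside 0.00, -0.03 and -0.01 over all genes, and 5, 4 and 2 of the 7 were negative. At the level of probe sets, 0 of 19 were called in each comparison. In fits with the array number as a block, whose values for full-length against empty vector stand in the closing section, the background in that comparison was 1.89% higher and 1.74% lower. For A/B-deleted against empty vector the blocked fit called 0 of the 7, beside 0.66% of all genes higher and 0.253% lower. At an unadjusted p under 0.05 it gave 4 of the 7, beside 1790 of all genes.

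**Figure D2:**
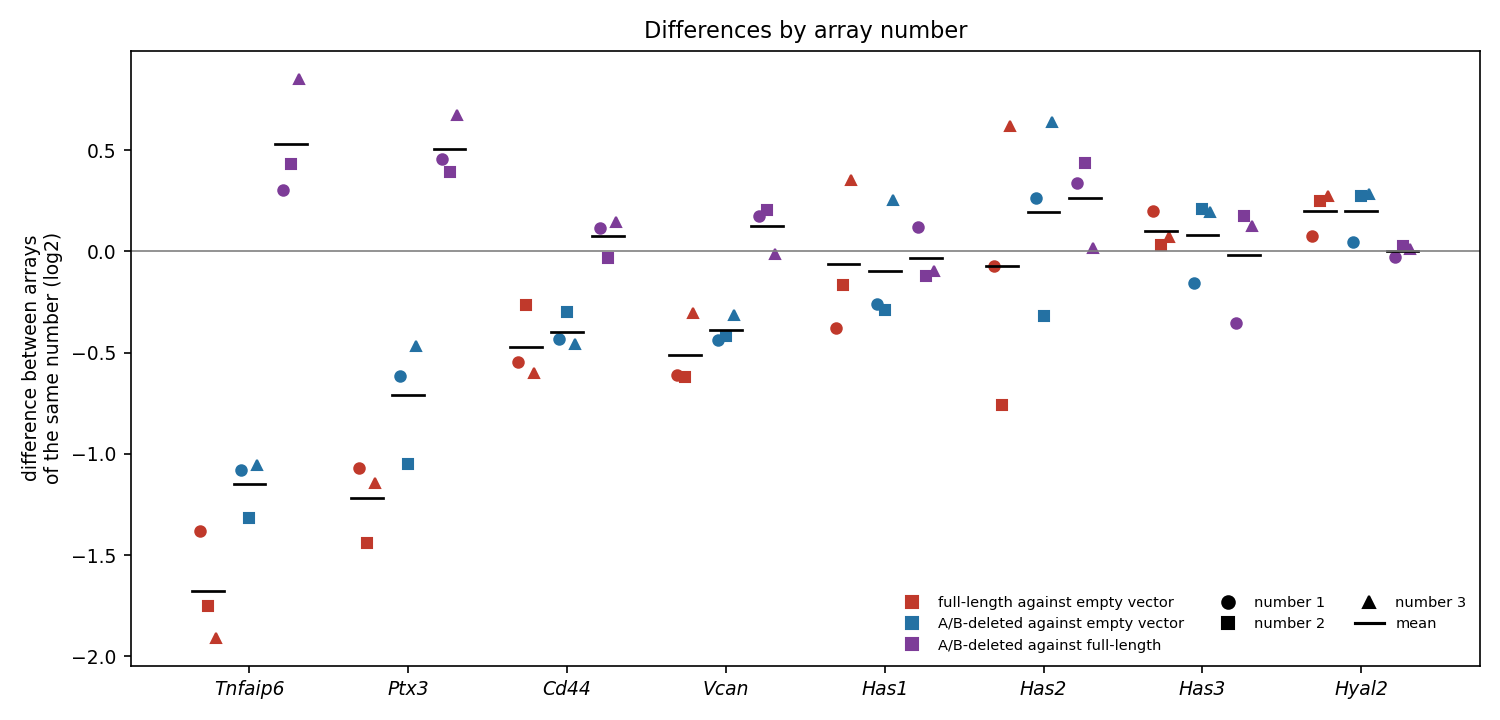
Difference between arrays of the same number (log2, vertical axis) for 8 hyaluronan matrix genes (horizontal axis), coloured by comparison, with shapes for the numbers and a line at the mean. Tnfaip6 and Ptx3 are the genes in which all 3 numbers lie below 0 against the empty vector and above 0 between the receptors; the points of Has1, Has2 and Has3 fall on both sides of 0 in most comparisons.

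Ptx3, which encodes the pentraxin that bridges heavy chains, differed far more between array numbers than between groups. It read 11.57, 12.54 and 7.31 with the empty vector, 10.50, 11.09 and 6.17 on the full-length arrays, and 10.95, 11.49 and 6.84 on the A/B-deleted arrays. In every group the array numbered 3 was the low one, and the groups overlapped. Averaged over groups the numbers gave 11.00, 11.71 and 6.77, a range of 4.93 that ranked 1 of 18193 genes, and numbers 1 and 2 together were 23.95-fold above number 3.

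Fitted over the 3 groups, the differences of Ptx3 were -1.22 for full-length against empty vector (95% confidence interval -5.15 to 2.71), -0.71 for A/B-deleted against empty vector (-4.64 to 3.22) and 0.51 between the receptors (-3.42 to 4.44), each with an adjusted p of 1. Number by number they were narrow. Full-length minus empty vector was -1.07, -1.44 and -1.14, A/B-deleted minus empty vector was -0.62, -1.05 and -0.47, and A/B-deleted minus full-length was 0.45, 0.39 and 0.67. With the array number as a block the SE of Ptx3 fell from 1.75 to 0.12, and the adjusted p was 0.0691 for A/B-deleted against empty vector and 0.766 between the receptors. Full-length against empty vector passed with the block, though its numbers did not pass the pairing check, and that value stands in the closing section. With a term for the arrays numbered 3 alone, added after seeing the data, the full-length interval was -1.85 to -0.58 with an adjusted p of 0.0734.

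Ptx3 was the gene besides Tnfaip6 whose levels ran empty vector, A/B-deleted, full-length from high to low at all 3 numbers. Of all 18193 genes, 742 (4.08%) had this order and 536 (2.95%) the opposite one. Cd44 and Vcan had it at 2 of 3 numbers. The second Ptx3 probe set read lower on every array, at 5.54 to 6.14, and gave -0.10 for full-length against empty vector.

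**Figure D3:**
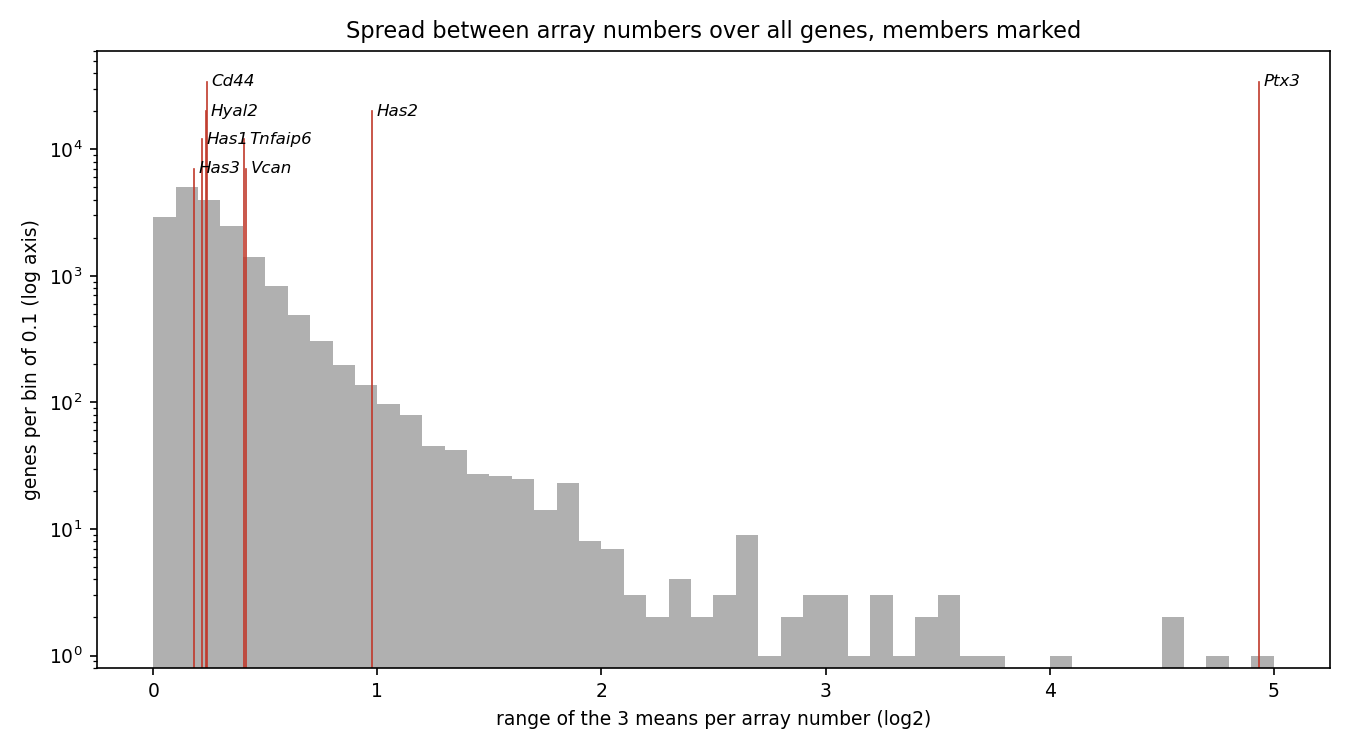
Number of genes (vertical axis, log scale) by the range of their 3 means per array number (horizontal axis, log2, bins of 0.1), with a line for each hyaluronan matrix gene. Ptx3 lies at 4.93, at the far right of all 18193 genes, Has2 at 0.98, and the other 6 at 0.42 or below.

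The synthase genes did not pass the test in any comparison. Has2, the main synthase of most fibroblasts, read 8.71, 9.28 and 9.33 with the empty vector, 8.63, 8.52 and 9.95 on the full-length arrays and 8.97, 8.96 and 9.97 on the A/B-deleted arrays. The groups overlapped, and within each group the highest array was the one numbered 3. The difference was -0.07 for full-length against empty vector (95% interval -0.98 to 0.83), 0.19 for A/B-deleted against empty vector (-0.71 to 1.10) and 0.26 between the receptors (-0.64 to 1.17), each with adjusted p = 1. These intervals are wide, and a difference of 0.5 in either direction lies inside each of them.

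The range of Has2 between array numbers, 0.98, exceeded that of 97.4% of genes, and ran against Ptx3, which was lowest at number 3. At number 2 full-length minus empty vector was -0.76 and at number 3 it was 0.62. The second Has2 probe set read 8.08 to 9.47 over all arrays and was also higher at number 3 than the other numbers on average.

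Has1, the synthase gene most tied to inflammatory stimuli, read 6.48 to 6.76 with the empty vector, 6.38 to 6.83 with the full-length and 6.33 to 6.73 with the A/B-deleted receptor. Its mean over all arrays, 6.56, lay under the lowest array median, 6.68. Its differences were -0.06 (95% interval -0.42 to 0.29), -0.10 (-0.45 to 0.26) and -0.03 (-0.39 to 0.32) in the same order of comparisons. Has3, which makes shorter chains, read 5.27 to 5.38, 5.40 to 5.47 and 5.12 to 5.58, below the median of every array. All 3 full-length arrays of Has3 exceeded all empty-vector arrays, by 0.10 on average (-0.21 to 0.41). With no detection calls in the table, whether Has3 was expressed could not be told.

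Hyal2, which encodes the hyaluronidase anchored at the cell surface, was similar with both receptors. It read 8.48, 8.42 and 8.57 with the empty vector, 8.55, 8.67 and 8.84 with the full-length and 8.52, 8.69 and 8.85 with the A/B-deleted receptor. Receptor arrays were above the empty-vector array of the same number at all 3 numbers, yet the groups overlapped. The difference was 0.20 for the full-length (95% interval -0.08 to 0.48) and 0.20 for the A/B-deleted receptor (-0.08 to 0.48), with adjusted p = 1 for both. Between the receptors it was 0.00 with an interval of -0.28 to 0.29. With the array number as a block, the interval for A/B-deleted against empty vector was 0.01 to 0.39 (limma adjusted p = 0.464).

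Hyal1, the gene of the lysosomal hyaluronidase, had 0 probe sets of its own. It shares 2 with its neighbour Naa80 in the annotation. The probe set whose design accession is a Hyal1 transcript in RefSeq read 6.39, 6.65 and 6.30 with the empty vector, 6.40, 6.53 and 6.45 with the full-length and 6.50, 6.24 and 6.49 with the A/B-deleted receptor, so its groups overlapped. It entered no test.

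Cd44, the hyaluronan receptor, read lower with both receptors than with the empty vector. It was 12.31, 12.37 and 12.58 with the empty vector, 11.77, 12.10 and 11.98 on the full-length arrays, and 11.88, 12.07 and 12.12 on the A/B-deleted arrays. All arrays of both receptor groups lay under the lowest empty-vector array, and the receptor groups overlapped. Full-length minus empty vector was -0.47 (SE 0.13, 95% interval -0.77 to -0.18) with an adjusted p of 0.267, and A/B-deleted minus empty vector was -0.40 (-0.69 to -0.10) with an adjusted p of 0.876. Neither passed the test over all genes, although both intervals lie below 0. Between the receptors the difference of Cd44 was 0.08 (-0.22 to 0.37, adjusted p = 1). With the array number as a block, the interval for A/B-deleted against empty vector was -0.60 to -0.19 (limma adjusted p = 0.133).

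Cd44 has 4 probe sets, and the 3 brighter ones ran the same way. The second brightest gave -0.49 and -0.35 for the full-length and A/B-deleted receptor against empty vector. The third read 10.57, 10.86 and 11.05 with the empty vector and 9.75, 10.14 and 10.34 with the full-length receptor, which put it at -0.75 (SE 0.20, adjusted p over probe sets 0.246), and at -0.45 with the A/B-deleted receptor. The dimmest, at 5.28 to 5.77, gave 0.17 and 0.20.

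Vcan, which encodes the large proteoglycan versican, read 10.76, 11.17 and 10.62 with the empty vector, 10.14, 10.55 and 10.31 on the full-length arrays, and 10.32, 10.75 and 10.30 on the A/B-deleted arrays. All full-length arrays lay under the lowest empty-vector array, while 1 A/B-deleted array, numbered 2, lay above it. The difference was -0.51 (SE 0.19, 95% interval -0.93 to -0.09, adjusted p = 0.557) with the full-length and -0.39 (-0.81 to 0.03, adjusted p = 1) with the A/B-deleted receptor, and 0.12 (-0.30 to 0.54) between them. With the array number as a block, the interval for A/B-deleted against empty vector was -0.60 to -0.18 (limma adjusted p = 0.142).

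Of the 7 genes, 2 (Cd44 and Vcan) had all full-length arrays under all empty-vector arrays, a pattern of 4.86% of all genes, and 1 (Has3) had the reverse, seen in 4.52%. For A/B-deleted against empty vector, 1 (Cd44) was lower without overlap, against 4.03% of all genes. For A/B-deleted above full-length it was 0 of 7, against 2.02%. With so few genes these counts describe the list and nothing more.

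**Figure D4:**
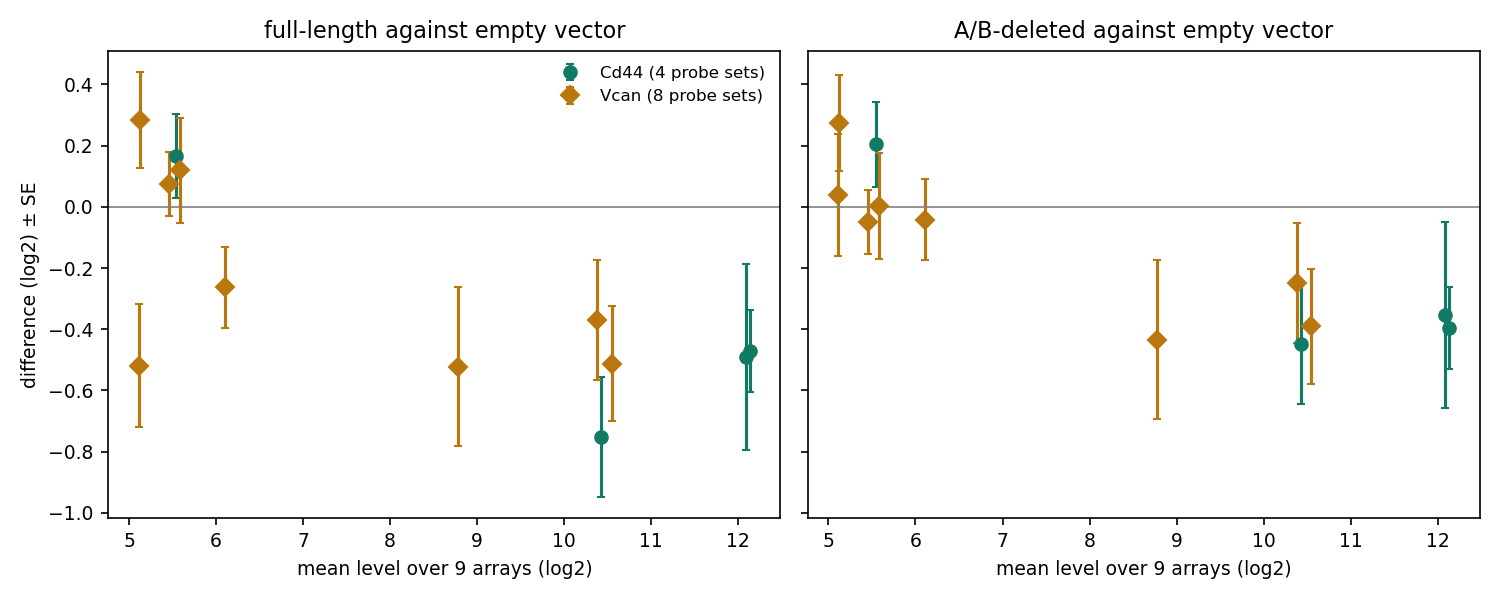
Difference against the empty vector (log2, vertical axis, bars are ± 1 SE) by mean level over 9 arrays (log2, horizontal axis) for the 4 probe sets of Cd44 and the 8 of Vcan, full-length receptor on the left and A/B-deleted on the right. The 3 brighter probe sets of Cd44 and the 3 brighter ones of Vcan lie below 0 in both panels, while the dim probe sets, with levels of about 5 to 6, lie on both sides of 0. A dim Vcan probe set, at a mean level of 5.11, gave -0.52 with the full-length and 0.04 with the A/B-deleted receptor.

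The levels most like those of Tnfaip6 over the 9 arrays, among 10686 genes with a mean level of at least 7, were those of Cemip2 (r = 0.987), Prss23 (0.983), Rgs2 (0.983), Numbl (0.976) and Cxcl5 (0.973). Cemip2 encodes a cell-surface hyaluronidase, Rgs2 a regulator of G-protein signalling and Cxcl5 a neutrophil-attracting chemokine. For Ptx3 they were Prrx2 (0.998), Mfap5 (0.996), Col5a1 (0.996), Lrrc8a (0.995) and AW551984 (0.995), all low on the arrays numbered 3. Prrx2 encodes a homeobox factor of connective tissue, Mfap5 a microfibril protein and Col5a1 a collagen chain. For Has2 they were Nedd8 (0.965), Sdhd (0.963), Pomt1 (0.955), Ccdc124 (0.954) and Nop53 (0.947), all highest on average at number 3. Nedd8 encodes a ubiquitin-like modifier and Sdhd a subunit of the respiratory chain. These correlations are over 9 arrays that share groups and numbers, and they describe likeness of pattern only.

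The gene lists that follow were chosen with earlier results of these data known, so their calls are not independent support. With the full-length receptor, 0.154% of all genes were called lower and 0.5% higher. Among other genes of hyaluronan breakdown, 1 of 11 measured was called lower with this receptor and 0 higher. This was Cemip2, at 8.89, 9.42 and 9.17 with the empty vector, 8.31, 8.31 and 8.02 with the full-length and 8.49, 8.59 and 8.54 with the A/B-deleted receptor. No group overlapped with another. It fell by 0.94 with the full-length receptor (SE 0.15, adjusted p = 0.0251) and stood at -0.62 with the A/B-deleted receptor (adjusted p = 0.388). The other Cemip2 probe sets gave -0.80 (limma adjusted p over probe sets 0.839) and -0.05 with the full-length receptor, and neither passed. The call is a narrow one. The adjusted p rose to 0.1 without empty-vector array 2, 0.082 without empty-vector array 3, 0.0723, 0.0938 and 0.062 without full-length array 1, 2 or 3, and 0.0604 and 0.0504 without A/B-deleted array 1 or 2, and the mean of its probe sets gave -0.60 (adjusted p = 0.456). The median of the 11 was 0.04, beside 0.00 over all genes.

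Among versican partners and the proteases that cleave it, 1 of 12 was called higher and 0 lower with the full-length receptor. Over all genes the shares were 0.5% and 0.154%. Adamts4, a versican-cleaving protease, read 6.53, 6.62 and 6.48 with the empty vector, all under the lowest array median of 6.68. It read 7.69, 7.74 and 7.84 on the full-length arrays and 6.83, 6.73 and 6.84 on the A/B-deleted arrays. It rose by 1.21 with the full-length receptor (SE 0.10, adjusted p = 0.000794), and every leave-out of 1 array kept this call, with 1.17 to 1.25. With the A/B-deleted receptor it was 0.25 above the empty vector (adjusted p = 1), and against the full-length receptor the difference was -0.96 (adjusted p = 0.08), which did not pass. Its second probe set gave 0.55 with the full-length receptor and did not pass (limma adjusted p over probe sets 0.264).

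EGF-type ligands and prostaglandin genes drive matrix expansion in the cumulus, and the list of them also held Egfr, Gdf9, Bmp15, Il6, Il1b and Tnf. With the full-length receptor and without the block, 0.154% of all genes were called lower and 0.5% higher. Of the 14 measured genes of this list, 1 was called lower and 0 higher. This was Ptger4, the gene of a prostaglandin E receptor, at 9.39, 9.16 and 9.16 with the empty vector, 8.41, 7.82 and 7.93 with the full-length and 8.98, 8.50 and 8.91 with the A/B-deleted receptor. It fell by 1.18 (SE 0.19, adjusted p = 0.0238), and stood at -0.45 with the A/B-deleted receptor (adjusted p = 1). Its second probe set gave -1.14 with the full-length receptor and did not pass (limma adjusted p over probe sets 0.0679). This call too was narrow: the adjusted p was 0.111, 0.0982 and 0.0642 without empty-vector array 1, 2 or 3, and 0.123 and 0.062 without full-length array 2 or 3.

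For A/B-deleted receptor against empty vector, none of these lists had a called gene without the block. With the array number as a block, where 0.66% of all genes were called higher and 0.253% lower, Il6 and Ptgs2 passed, both picked out after their values were seen. Il6, a cytokine gene, read 6.93, 5.71 and 5.64 with the empty vector and 8.05, 6.57 and 6.77 with the A/B-deleted receptor, a difference of 1.04 (blocked adjusted p = 0.0118). The empty-vector arrays numbered 2 and 3 and the A/B-deleted array numbered 2 lay under the lowest array median, 6.68. Ptgs2, which encodes the inducible prostaglandin synthase, read 11.32, 11.25 and 12.14 against 10.45, 10.26 and 11.60, a difference of -0.80 (blocked adjusted p = 0.0331). The groups overlapped for both, and the differences by number ran the same way at all 3. Without the block, over all 9 arrays, both had an adjusted p of 1, while Ptgs2 reached 0.0402 on arrays numbered 1 and 2 only and 0.0279 with a term for the arrays numbered 3. The size moved with single arrays: Il6 was 0.58 without A/B-deleted array 1, and Ptgs2 was -0.51 without empty-vector array 3 and -1.21 without A/B-deleted array 3. The second Ptgs2 probe set gave -0.74 and did not pass with the block (limma adjusted p over probe sets 0.0912). With the full-length receptor Ptgs2 read 9.77, 9.73 and 10.99, all under the lowest empty-vector array. That difference was -1.41 with an adjusted p of 0.374 without the block.

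In the other lists 0 genes were called with either receptor without the block, and the blocked calls for the full-length receptor stand in the closing section. Of 13 link proteins and lecticans, the largest differences with the full-length receptor were those of Layn (-0.35), a membrane receptor for hyaluronan, and Hapln1 (0.23), a link protein that ties proteoglycans to hyaluronan. Of 13 heavy-chain and pentraxin partners they were Thbs1 (-1.51, SE 0.62, adjusted p = 0.706) and Thbs2 (0.77), both thrombospondins. Thbs1 read 12.77, 12.33 and 11.22 with the empty vector and 11.66, 10.66 and 9.47 with the full-length receptor, lower at every number but with overlapping groups.

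Of 15 genes that supply the nucleotide sugars, the largest differences were Pgm1 (0.70, adjusted p = 0.241) and Ugp2 (-0.47, adjusted p = 0.348), and the median was -0.24 beside 0.00 over all genes. The list of CD44 linkers and sheddases, with 10 measured genes, also held the receptor genes Tlr2 and Tlr4. Its largest differences were those of Tlr4 (-0.99, adjusted p = 0.214), a receptor that senses hyaluronan fragments, and Adam10 (0.30, adjusted p = 1), a protease that sheds CD44. Tlr4 read 8.47, 8.58 and 8.86 with the empty vector and 7.24, 7.52 and 8.19 with the full-length receptor, and these groups did not overlap. Between the receptors, 0 genes of any list were called.

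**Figure D5:**
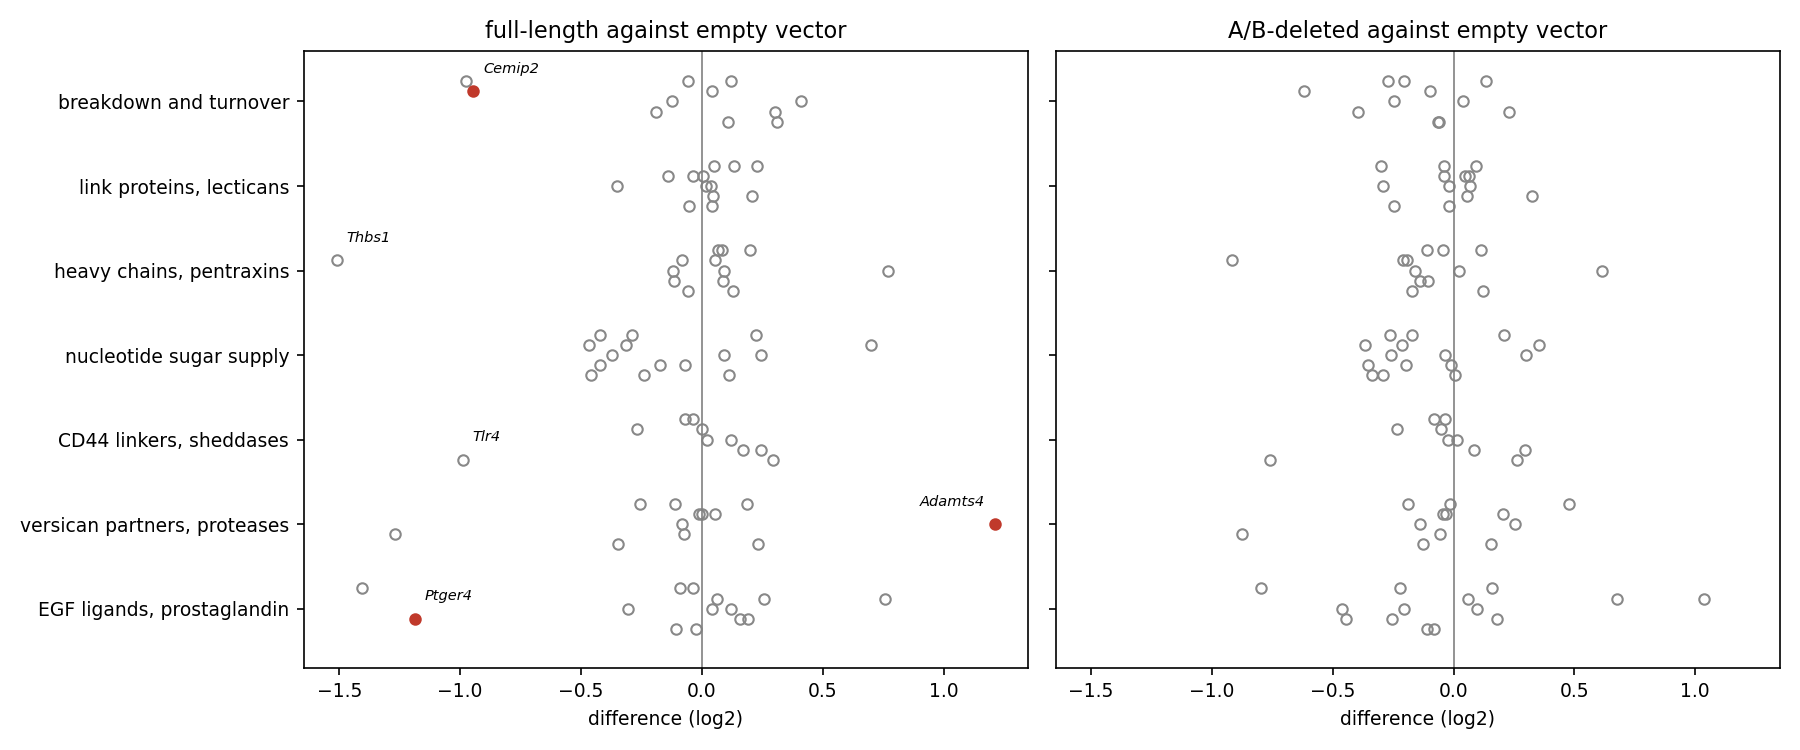
Difference against the empty vector (log2, horizontal axis) for each measured gene of 7 lists of the hyaluronan pathway (vertical axis), full-length receptor on the left and A/B-deleted on the right; filled points passed limma's test at an adjusted p under 0.05 without the block. Filled points are Cemip2 (-0.94), Adamts4 (1.21) and Ptger4 (-1.18), all on the left, and most other genes lie within 0.5 of 0.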

How the data were processed

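The authors deposited 1 log2 value per probe set and array, computed by RMA (package affy, R 2.5.0), as the submitters' processing notes list. The base of 2 was read from the values, since on every array at least 99.858% of antilogs came within 0.01 of a unit of whole multiples of 0.01. Array medians were 6.68 to 6.90. The number of arrays limits the precision (median SE 0.158). Scan dates are not given in the sources used here.

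Of 45101 probe sets, 34945 had 1 gene symbol, 932 several, 9160 none, and 64 were controls. Only the first kind was compared, and each gene took its probe set with the highest mean. Groups and numbers came from the titles. Differences were tested with limma 3.58.1 (R 4.3.3, 2-sided, 6 residual degrees of freedom) over 9 arrays and 3 group means; tables and figures used Python 3.11.15, pandas 2.3.3 and matplotlib 3.10.9. The procedure was tested on simulated data. P-values measure the spread between these arrays.

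Whether equal numbers pair arrays was checked by correlating deviations from the group means across genes: 0.57, 0.52 and 0.71 for A/B-deleted and empty vector, 0.30, 0.51 and 0.53 between the receptors, and -0.12, 0.63 and 0.26 for full-length and empty vector, so the last comparison was not treated as paired. The rule named all members, the 5 closest patterns each for Tnfaip6, Has2 and Ptx3, and from each list the called genes or otherwise the 2 largest differences; any further gene was picked with its values in view. Members and lists were chosen with earlier results of these data known. Alternatives were the block, 1 array left out, arrays 1 and 2 only, 2 groups only, probe set means, median and quantile scaling, a filter at a mean of 6 and a variance trend.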

Additional observations from a re-analysis of the deposited data

How the results depend on the processing

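Over 19 alternative settings, 453 member values were recomputed: 33 changed sign, 5 newly passed and 415 did neither. For Tnfaip6, which was not tested, only the direction was checked. With a replicate block, whose pairing check failed for full-length against empty vector, 1.89% of all genes were called higher and 1.74% lower in that comparison. Members called lower went from 0 to 3 (Ptx3 adjusted p = 0.00516, Cd44 0.0402, Vcan 0.0311) and probe sets called from 0 to 4. On arrays numbered 1 and 2 only with the block, chosen after seeing the data, both counts were 2 (Ptx3 -1.26, adjusted p = 0.02, and Vcan -0.62, adjusted p = 0.0462). No share over all genes is given for that setting, and none over all probe sets for either, so those counts cannot be set against a background. In the lists the block also called Thbs1 (adjusted p = 0.00546), Gnpnat1 (0.029), Uap1 (0.0317), Tlr4 (0.0169), Adamts5 (0.0308) and Ptgs2 (0.00247) lower and Pgm1 (0.00541) and Ptges (0.0166) higher with the full-length receptor. Apart from Tnfaip6, which was not tested, the block changed no call of a member in the other comparisons. Without the block the adjusted p in that comparison ran from 0.0734 to 1 for Ptx3, 0.0912 to 0.698 for Cd44 and 0.26 to 1 for Vcan over 17 alternatives. Leaving out 1 array kept all member counts at 0. Has3 has no value under the filter at a mean of 6. Apart from the arrays left out, Cemip2 lost its call with only the 2 groups compared (adjusted p = 0.114), with medians subtracted (0.0509) and on arrays 1 and 2 (0.116), and Ptger4 with the 2 groups (0.058) and on arrays 1 and 2 (0.107).

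None of the values that changed sign had been called, and the cause was not tested. On arrays 1 and 2 only, with or without the block, Has2 was -0.028 for A/B-deleted against empty vector and Hyal2 -0.0019 between the receptors. Between the receptors, Has1 was 0.002 and Has3 0.0164 with array medians subtracted, and Has1 0.0043, Has3 0.0118 and Hyal2 -0.0205 after quantile normalization. With 1 array left out, full-length against empty vector ran from -0.20 to 0.0212 in Has1, -0.53 to 0.18 in Has2 and -2.80 to 0.32 in Ptx3. A/B-deleted against empty vector ran from -0.20 to 0.0006, -0.14 to 0.36 and -2.29 to 0.75 in the same genes. Hyal2 ran from 0.12 to 0.27 with the full-length and 0.12 to 0.28 with the A/B-deleted receptor, and Vcan from -0.54 to -0.23 with the latter. Between the receptors it ran from -0.14 to 0.10 in Has1, -0.0684 to 0.72 in Has2, -0.10 to 0.14 in Has3, -0.0782 to 0.0857 in Hyal2, -0.0158 to 0.15 in Cd44, -0.0244 to 0.23 in Vcan and -1.04 to 1.97 in Ptx3.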
